A study of Mus musculus with 10 samples.

Results

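Pramel4, Pramel5, Pramel6 and Pramel7 are 4 of the 55401 genes in an RNA-seq table of mouse embryonic stem cells. They are members of the PRAME-like (PRAMEL) gene family and were chosen with their levels in these data known. All cells were E14, an established mouse embryonic stem cell line, given as mESC in the labels. The 6 mutant libraries carried the ANKRD11 Y347A substitution, made by CRISPR/Cas9 genome editing, and ANKRD11 is a chromatin-associated ankyrin repeat protein. The 4 wild-type libraries came from the same line without that change and are labelled as untreated. The labels number the mutant libraries in sets 1, 2 and 3 and the wild-type libraries in sets 1 and 2, with 2 libraries a set, without giving what distinguishes sets (clones, cultures or days). The p-values below therefore measure the spread between these sets or libraries, which may be technical.

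PRAME family proteins are built of leucine-rich repeats, and several act as substrate receptors of cullin-2 ubiquitin ligases, which they join through elongin B and elongin C. Mouse PRAMEL7 is known to direct UHRF1, the factor that brings the maintenance DNA methyltransferase to newly replicated DNA, to degradation, and is linked to LIF and STAT3 signalling in embryonic stem cells. Pramel6 and Pramel7 are known from the inner cell mass and from stem cells in the naive state. In human cells PRAME represses retinoic acid receptor signalling.

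Pramel6 and Pramel7 were low in every mutant library and higher in every wild-type library, Pramel5 was listed at 0 TPM in the mutant libraries and at traces in the wild-type ones, and Pramel4 was listed at 0 in all 10 libraries. TPM is a transcript level per transcript length, scaled to the same total in every library. The members were picked with the mutant and wild-type levels known, so those levels are given as a description without a test. As this is bulk RNA, fewer cells expressing a gene and less RNA per cell cannot be told apart.

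The 250 bases before each gene's RefSeq start (GRCm38.p6) are shown for the 4 family genes with the lowest log2 fold changes among those that passed the filter below, so that the sequences can be read beside the values that follow. Pramel7 on chromosome 2 (chr2:87492419-87492668, minus strand), Pramef17 on chromosome 4 (chr4:143994370-143994619, minus strand) and Gm13128 on chromosome 4 (chr4:144329999-144330248, plus strand) have related upstream sequences, and capitals mark the runs of at least 12 bases found in all 3. These runs cover 87 of the 250 bases in each.
Pramel7: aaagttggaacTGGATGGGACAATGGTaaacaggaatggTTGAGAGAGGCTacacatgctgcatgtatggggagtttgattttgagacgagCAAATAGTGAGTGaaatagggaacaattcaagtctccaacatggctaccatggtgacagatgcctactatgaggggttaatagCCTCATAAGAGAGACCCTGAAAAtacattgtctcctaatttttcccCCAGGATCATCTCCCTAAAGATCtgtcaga
Pramef17: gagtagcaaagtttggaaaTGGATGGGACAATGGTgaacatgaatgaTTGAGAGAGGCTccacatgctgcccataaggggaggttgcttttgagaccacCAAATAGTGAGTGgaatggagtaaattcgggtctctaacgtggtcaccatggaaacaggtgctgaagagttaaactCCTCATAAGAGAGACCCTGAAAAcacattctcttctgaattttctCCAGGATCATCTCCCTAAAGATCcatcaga
Gm13128: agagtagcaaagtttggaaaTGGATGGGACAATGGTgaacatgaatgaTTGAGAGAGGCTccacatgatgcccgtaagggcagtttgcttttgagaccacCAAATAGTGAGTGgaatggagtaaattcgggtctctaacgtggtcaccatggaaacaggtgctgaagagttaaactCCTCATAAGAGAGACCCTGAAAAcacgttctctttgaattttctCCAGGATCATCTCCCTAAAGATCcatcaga

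Pramel6 on chromosome 2 (chr2:87506315-87506564, plus strand) lies near Pramel7, but its upstream bases are not close to those of the other 3, and capitals mark instead the motif matches found in it. CCACCC, the core read by KLF factors, begins 141 bases before the start, and AGGGGGC, the core read by CTCF, begins 56 bases before it.
Pramel6: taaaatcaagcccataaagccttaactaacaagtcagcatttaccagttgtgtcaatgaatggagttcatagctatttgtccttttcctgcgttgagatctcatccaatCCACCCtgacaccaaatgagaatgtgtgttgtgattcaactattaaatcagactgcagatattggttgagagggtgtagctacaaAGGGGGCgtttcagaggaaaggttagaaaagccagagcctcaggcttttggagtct

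These motifs were searched on both strands together with TTCNNNGAA, the palindrome read by STAT factors, the octamer ATGCAAAT and TATAAA, and no match overlapped another. Among 32851 mouse RefSeq promoters cut to the same length, 28.1% held CCACCC, 9.43% AGGGGGC, 7.02% TTCNNNGAA, 1.60% ATGCAAAT and 12.4% TATAAA. None of the 5 was found in the upstream bases of Pramel4, Pramel5, Pramel7, Pramef17 or Gm13128, which says only that those letters are not in these windows. The Pramel6 start used by RefSeq is the one furthest upstream, at base 87506565, whereas its 2 coding transcripts in GENCODE start at 87507425 and 87508458, so the window shown may not be the promoter of the coding transcripts.

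Pramel6 (ENSMUSG00000025838.12; chromosome 2, 87506565 to 87510872, plus strand) encodes a PRAMEL protein that is known to be expressed in the inner cell mass. It had 1.66 and 0.57 TPM in mutant set 1, 2.32 and 1.57 TPM in mutant set 2, and 0.83 and 0.95 TPM in mutant set 3, against 14.2 and 13.0 TPM in wild-type set 1 and 16.1 and 13.9 TPM in wild-type set 2. The highest mutant library, in set 2, lay well below the lowest wild-type library, in set 1, and the groups did not overlap. The means were 1.32 ± 0.556 TPM in mutant cells and 14.3 ± 0.979 TPM in wild-type cells (SD over set means, n = 3 mutant and 2 wild-type sets, here and for all means below), a mutant level of 0.0919 times the wild-type level. The difference in log2(TPM + 1), which compresses differences at low levels, was -2.77 ± 0.21 (SE).

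Pramel7 (ENSMUSG00000025839.3; chromosome 2, 87489087 to 87497093, minus strand), the UHRF1-directed family member, lies 9.5 kb from Pramel6. It had 0.72 and 0.51 TPM in mutant set 1, 0.80 and 0.98 TPM in mutant set 2, and 0.17 and 0.86 TPM in mutant set 3, against 5.83 and 7.51 TPM in wild-type set 1 and 9.04 and 9.84 TPM in wild-type set 2. No mutant library reached 1 TPM, every wild-type library was above 5 TPM, and the groups did not overlap. Mean levels were 0.673 ± 0.194 TPM in mutant cells and 8.06 ± 1.96 TPM in wild-type cells (SD over set means, n = 3 and 2 sets), a mutant level of 0.0836 times the wild-type level. The difference on the log2(TPM + 1) scale was -2.43 ± 0.20 (SE).

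**Figure D1:**
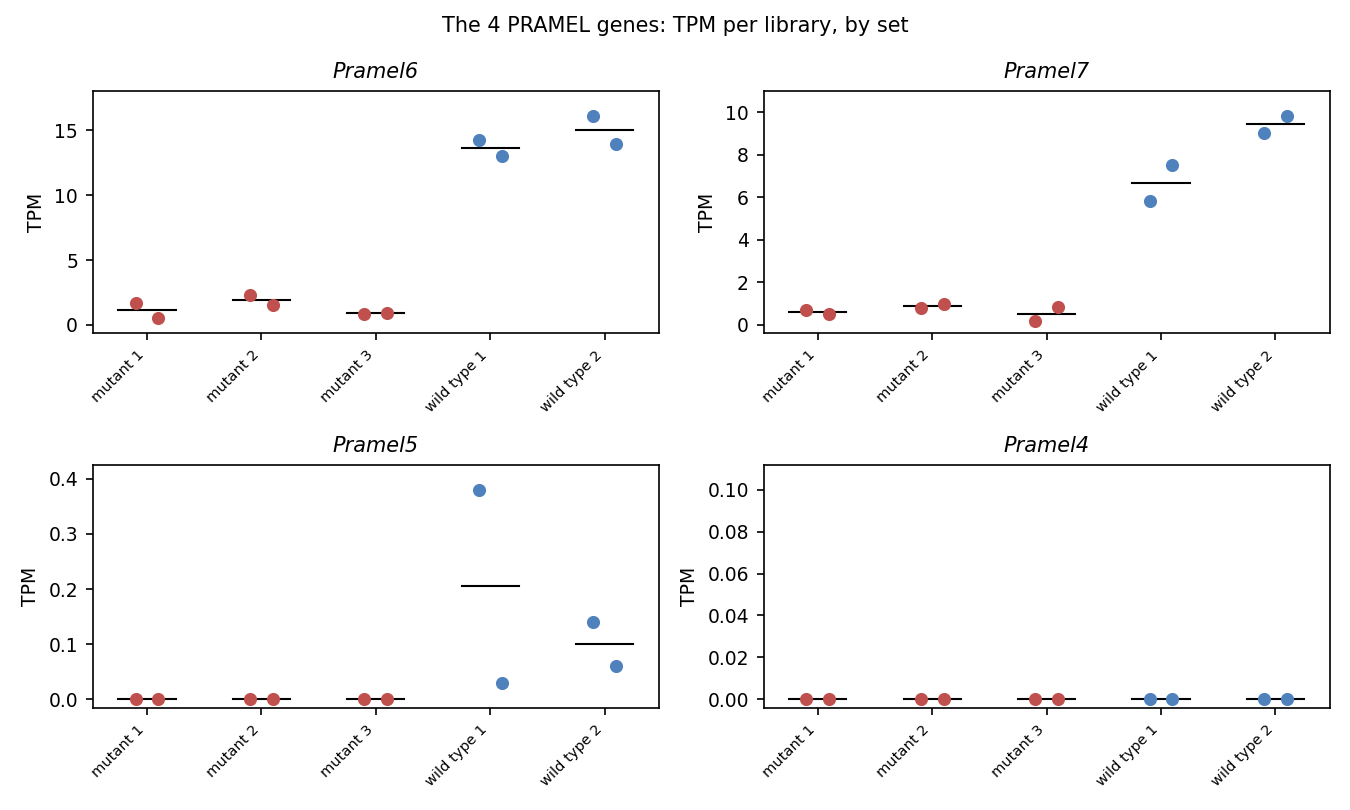
TPM of the 4 PRAMEL genes in each library (points; mutant red, wild type blue) by set, with the mean of each set's 2 libraries as a line; each panel has its own axis. Pramel6 lies at 0.57 to 2.32 TPM in mutant libraries and at 13.0 to 16.1 TPM in wild-type libraries, Pramel7 at 0.17 to 0.98 TPM in mutant and at 5.83 to 9.84 TPM in wild-type libraries.

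Pramel5 (ENSMUSG00000036749.15; chromosome 4, 144270633 to 144280488, minus strand) belongs to the large PRAME cluster of that chromosome. It was listed at 0 TPM in all 6 mutant libraries and at 0.38, 0.03, 0.14 and 0.06 TPM in the 4 wild-type libraries. No fold is given, since the mutant group is listed at 0 and the reads behind a trace of this size are unknown. Pramel4 (ENSMUSG00000073724.12; chromosome 4, 144059126 to 144069327, plus strand), 201.3 kb away, was listed at 0 in the 6 mutant and the 4 wild-type libraries. Of the 4 members, 2 passed the filter of a mean of 1 TPM over the 10 libraries, and Pramel7 passed it only through its wild-type level.

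Both members that passed lay lower in mutant cells with no overlap between the groups, and the same held for 2488 of the 12797 genes that passed the filter (19.4%). Because the members were chosen on this contrast, nothing is read from that count. By log2 difference, Pramel6 was 12th and Pramel7 21st from the lowest of the 12797 genes, again as a description. Within single libraries, Pramel6 exceeded 1.63% to 15.2% of the tested genes in mutant libraries and 46.2% to 52.2% in wild-type libraries. For Pramel7 these shares were 0.945% to 4.37% in mutant libraries and 29.1% to 40.01% in wild-type libraries. In these wild-type cells Pramel6 was thus near the middle of the tested genes and Pramel7 somewhat below it.

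The level of Pramel6 relative to Pramel7, both per length, ranged from 1.11 to 4.88 over the mutant libraries, with a median of 1.95. In wild-type libraries the ratio ranged from 1.42 to 2.44, with a median of 1.76. The highest value, in mutant set 3 replicate 1, rests on the lowest Pramel7 level of all libraries, 0.17 TPM. Pramel6 was above Pramel7 in every library, in mutant and wild-type cells, and the mutant and wild-type ranges of the ratio overlapped.

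Differences among sets of 1 genotype did not enter the choice of members and were tested over libraries with limma. Pramel6 was highest in mutant set 2, and the largest difference between mutant sets was 0.63 on the log2 scale, with an adjusted p of 0.160. Leaving out mutant set 1 replicate 1, the higher library of that set, gave a difference of 0.90 and an adjusted p of 0.0270, so 1 library decides that call. Pramel7 differed between mutant sets by at most 0.36 on the log2 scale, and by 0.69 without mutant set 3 replicate 2. No p is given for it, since all its mutant libraries lay below 1 TPM. Among all tested genes, 19.6% were called between mutant sets.

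Between the wild-type sets, Pramel7 was 0.45 ± 0.22 higher on the log2 scale in set 2 than in set 1 (SE; 95% interval -0.07 to 0.97; limma, adjusted p = 0.304). Both set 2 libraries, at 9.04 and 9.84 TPM, lay above both set 1 libraries, at 5.83 and 7.51 TPM, but this difference did not pass the threshold. Pramel6 differed between the same sets by 0.13 ± 0.24 (95% interval -0.42 to 0.68; limma, adjusted p = 0.809). Leaving out 1 library gave differences of 0.29 to 0.61 for Pramel7, the ends without wild-type set 1 replicate 1 and replicate 2. For Pramel6 the range was 0.03 to 0.23, the ends without wild-type set 2 replicate 1 and replicate 2. Of all tested genes, 2.75% were called between the wild-type sets.

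Among other PRAME family genes, Pramef17 and Gm13128 also lay lower in mutant cells, Pramef12 was lower by less, Pramef8 was higher, and Pramel1 did not pass the test. The table holds 14 further names of the Prame, Pramel, Pramef and Oog series, the last being oocyte-expressed oogenesin genes. Of these 14, 4 passed the filter, Pramef17 only through its wild-type level, so its difference is given as a description without a p. Of the other 3, Pramef8 was called higher and Pramef12 lower at an adjusted p under 0.05, and Pramel1 was not called. The background was 2242 called genes of 12797 (17.5%), with 892 higher (6.97%) and 1350 lower (10.5%). Without wild-type set 1 that count was 196 and without wild-type set 2 it was 42, and of the 34 called genes outside the members that were named or looked up, 21 and 30 then lost their call. Without mutant set 1, 2 or 3, 13, 2 and 10 of the 34 did. Another 6 of the 14 were listed at 0 in all 10 libraries, and the remaining 4 stayed at or below 0.23 TPM. RefSeq gives Pramel symbols to 22 more genes of the table; 11 were listed at 0 throughout, 10 were below the filter and 1, Gm13128, was tested.

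**Figure D2:**
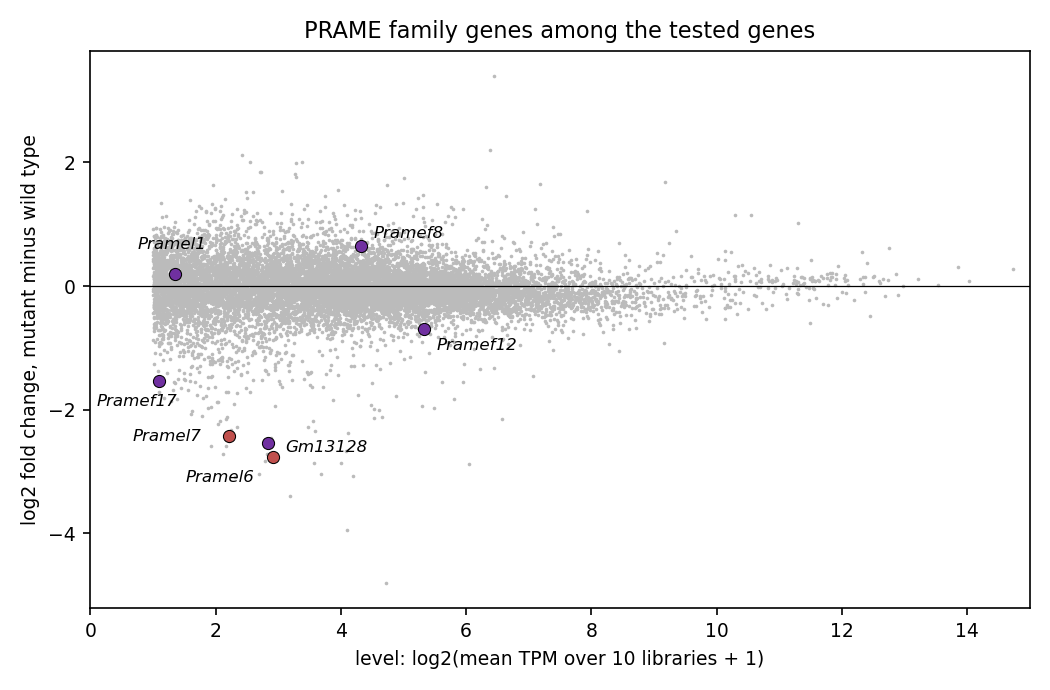
Log2 fold change, mutant minus wild type on the log2(TPM + 1) scale, against the level as log2 of mean TPM plus 1, for the 12797 tested genes (grey), Pramel6 and Pramel7 (red) and other tested PRAME family genes (purple). Pramel6, Gm13128, Pramel7 and Pramef17 lie at -2.77, -2.55, -2.43 and -1.53, Pramef12 lies at -0.69, and Pramel1 and Pramef8 lie above 0 at 0.20 and 0.65.

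Pramef17, which RefSeq calls Pramel14, had 0.35, 0.09, 0.34, 0.20, 0.25 and 0.09 TPM in the mutant libraries, against 2.54, 1.86, 2.68 and 3.08 TPM in the wild-type libraries. All mutant libraries lay below all wild-type libraries. Its log2 fold change was -1.53 ± 0.18 (SE), with a mean of 0.220 ± 0.050 TPM in mutant and 2.54 ± 0.481 TPM in wild-type cells (SD, n = 3 and 2 sets).

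Gm13128, which RefSeq calls Pramel30, had 0.63 and 0.90 TPM in mutant set 1, 1.14 and 1.87 TPM in set 2, and 1.90 and 2.46 TPM in set 3, against 11.3, 10.7, 16.4 and 14.3 TPM in the wild-type libraries. The groups did not overlap, and the log2 fold change was -2.55 ± 0.26 (SE; limma, adjusted p = 0.00455; 0.0730 without wild-type set 2). The mutant sets differed by up to 0.85 on the log2 scale, with set 3 highest (limma, adjusted p = 0.0284). That call between sets was lost without either library of mutant sets 1 and 3 or of wild-type set 1, with adjusted p up to 0.0996.

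Pramef17 and Gm13128 cannot be separated cleanly by reads: 56.3% of the 100-base windows of Pramef17 transcripts and 56.6% of those of Gm13128 also occur in the other gene. Their coding sequences were 99.3% identical. Summed, they had 1.70 ± 0.685 TPM in mutant cells and 15.7 ± 3.56 TPM in wild-type cells (SD, n = 3 and 2 sets), with a log2 fold change of -2.65 ± 0.24 (SE; limma, adjusted p = 0.00321). The sum ranged from 0.98 to 2.55 TPM over the mutant libraries and from 12.6 to 19.1 TPM over the wild-type libraries. By contrast, no 100-base window of Pramel6 or Pramel7 occurs in another annotated gene, and at 50 bases the shared windows were 0 for Pramel6 and 1.43% for Pramel7.

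Pramef12, which RefSeq calls Pramel13 and which is known for a role in mouse spermatogonial stem cells, was the most abundant family gene here. It averaged 31.3 ± 3.54 TPM in mutant cells and 51.1 ± 5.45 TPM in wild-type cells (SD, n = 3 and 2 sets), and its libraries ranged from 26.6 to 35.3 TPM in mutant and from 46.8 to 55.8 TPM in wild-type cells, without overlap. The log2 fold change was -0.69 ± 0.12 (SE; limma, adjusted p = 0.0146), and the adjusted p was 0.113 without wild-type set 1 and 0.103 without wild-type set 2. Its mutant sets differed by up to 0.32 (limma, adjusted p = 0.0298), a call lost without any 1 of 7 of the 10 libraries. Those 7 are mutant set 1 replicate 2, both libraries of mutant set 3 and all 4 wild-type libraries.

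Pramef8, which RefSeq calls Pramel12, was the one family gene called higher, with 21.1 to 23.9 TPM in mutant libraries and 12.2 to 15.8 TPM in wild-type libraries. Its means were 22.4 ± 0.609 TPM in mutant and 14.0 ± 2.14 TPM in wild-type cells (SD, n = 3 and 2 sets), and the log2 fold change was 0.65 ± 0.11 (SE; limma, adjusted p = 0.0146). Without mutant set 1, wild-type set 1 or wild-type set 2 the adjusted p was 0.0560, 0.0525 and 0.127. Pramel1 overlapped between groups, at 1.17 to 2.16 TPM in mutant and 0.97 to 1.62 TPM in wild-type libraries, and its log2 fold change was 0.20 ± 0.18 (SE; limma, adjusted p = 0.450).

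**Figure D3:**
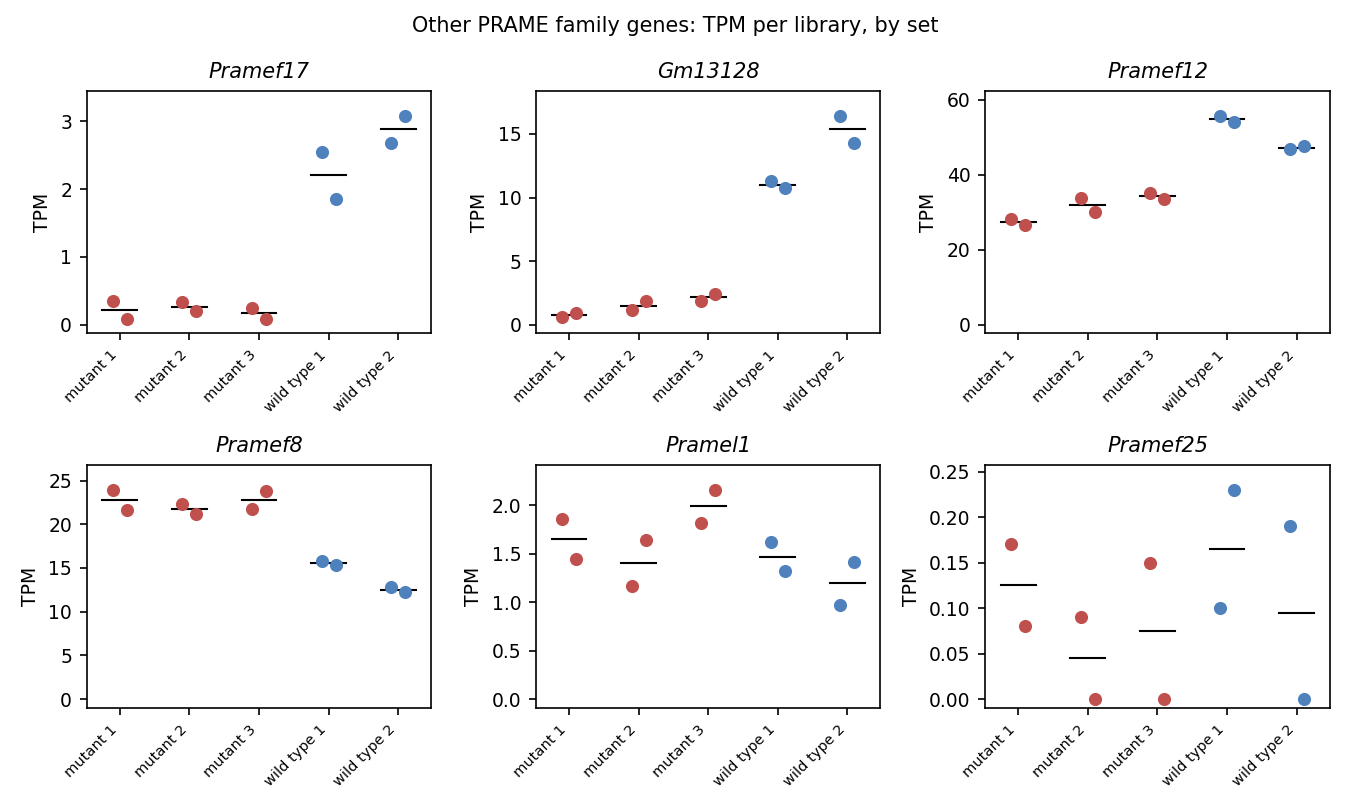
TPM of 6 further PRAME family genes in each library (points; mutant red, wild type blue) by set, with set means as lines; each panel has its own axis. Pramef17, Gm13128 and Pramef12 are lower in all 6 mutant libraries than in the 4 wild-type libraries, Pramef8 is higher, and Pramel1 and Pramef25 overlap.

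In sequence, Pramel7 was closer to genes on chromosome 4 than to its neighbour Pramel6. Pramel7 shared 80.9% of its aligned coding bases with Pramef17 and 81.2% with Gm13128, both on chromosome 4, and 59.7% with Pramel6, its neighbour on chromosome 2. In the upstream bases, too, Pramel7 was closer to Pramef17 (83.9%) and Gm13128 (83.0%) than to Pramel6 (61.2%). Other family pairs reached about that last value too, such as 62.0% for the upstream bases of Pramel4 and Pramel6. Pramel4 and Pramel5 were 93.7% identical in coding and 95.7% in upstream bases. For Pramel4, 77.4% of the 100-base windows also occur in another gene, mostly Gm13102, which was itself listed at 0 in all 10 libraries. For Pramel5 this share was 3.61%.

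**Figure D4:**
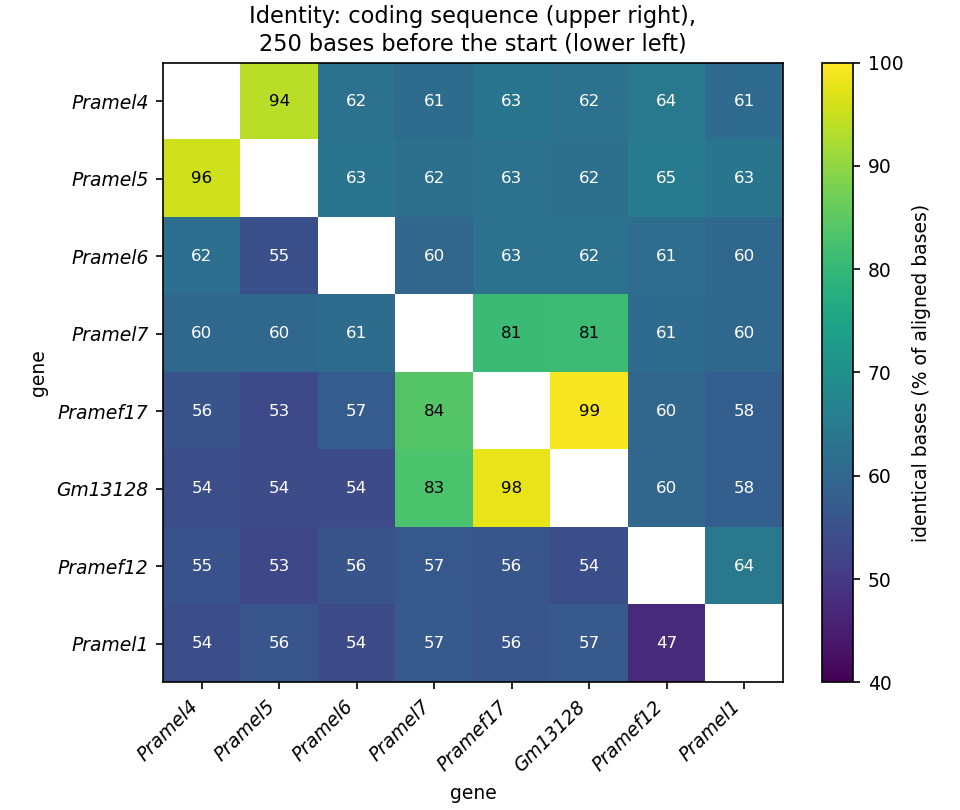
Percent identical bases between 8 PRAME family genes in coding sequence (upper right) and in the 250 bases before the start (lower left), as the colour and the rounded number in each cell. The highest cells pair Pramef17 with Gm13128 (99.3% coding) and Pramel4 with Pramel5 (93.7% coding), and Pramel7 pairs with Pramef17 and Gm13128 (80.9% and 81.2% coding).

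No tested gene lay within 500 kb of Pramel6 or Pramel7 apart from each other. Of 130 other genes of the table within 500 kb of a member, 100 were listed at 0 in all libraries and 5 passed the filter, 3 of them the family genes Pramef17, Gm13128 and Pramef12 described above. The nearest tested genes on chromosome 2 were Tnks1bp1, 2416 kb from Pramel7, and Ptprj, 2919 kb from Pramel6. Tnks1bp1, a tankyrase-binding protein gene, averaged 13.0 TPM in mutant and 15.5 TPM in wild-type cells, with a log2 fold change of -0.23 ± 0.11 (SE; limma, adjusted p = 0.185). Ptprj, a receptor-type tyrosine phosphatase gene, averaged 1.17 ± 0.0813 TPM in mutant and 4.99 ± 0.209 TPM in wild-type cells, with a log2 fold change of -1.47 ± 0.14 (SE; limma, adjusted p = 0.00367; 0.0609 without wild-type set 2). On chromosome 4, Gm13123 lay 22.4 kb from Pramel5 and overlapped between groups (log2 fold change -0.18 ± 0.14; limma, adjusted p = 0.411).

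Of 20 tested genes of the cullin-2 ligase and its substrate receptors, 3 were called higher, 5 lower and 12 were not called, with a median log2 fold change of -0.18. The background for this and the following lists is the 6.97% of all tested genes called higher and the 10.5% called lower. Fem1a, a substrate receptor for C-terminal degrons, rose by 0.59 ± 0.13 and Zer1, a receptor for N-terminal glycine, rose by 0.55 ± 0.14 on the log2 scale (SE; limma, adjusted p = 0.0283 and 0.0376). Cand1, the exchange factor for cullin receptors, fell by 0.55 ± 0.09 and Fem1c fell by 0.45 ± 0.10 (SE; limma, adjusted p = 0.0113 and 0.0294). The Zer1 call was lost without mutant set 1 replicate 1, mutant set 2 replicate 2 or wild-type set 1 replicate 2, with adjusted p up to 0.0743. Without a filter the Fem1a, Zer1 and Fem1c calls were lost (limma, adjusted p = 0.0884, 0.101 and 0.0699). Without mutant set 1 they were lost as well (limma, adjusted p = 0.0586, 0.114 and 0.0824). Fem1a and Zer1 also lost theirs without mutant set 3 (limma, adjusted p = 0.0766 and 0.0991), and Zer1 without a variance trend (0.0508).

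Elongin B and elongin C were looked up after the values were seen, because they bridge PRAME proteins to cullin-2. Elob averaged 846 ± 21.7 TPM in mutant and 1069 ± 42.2 TPM in wild-type cells, a log2 fold change of -0.34 ± 0.06 (SE; limma, adjusted p = 0.0163). Eloc averaged 151 ± 11.1 TPM in mutant and 196 ± 6.07 TPM in wild-type cells, a log2 fold change of -0.37 ± 0.08 (SE; limma, adjusted p = 0.0266). The Eloc call was lost under median-of-ratios and quantile scaling (adjusted p = 0.0589 and 0.0636) and without mutant set 2 replicate 1 (0.0537). Without a filter, a variance trend or mutant set 3, the Elob call was lost (limma, adjusted p = 0.0557, 0.0542 and 0.0541). The Eloc call was lost in the same fits. Cul2, the scaffold, averaged 57.0 TPM in mutant and 68.9 TPM in wild-type cells and missed the threshold (limma, adjusted p = 0.0634). Rbx1, of the same list, averaged 113 TPM in mutant and 110 TPM in wild-type cells. Its groups overlapped, and it was not called (limma, adjusted p = 0.679).

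UHRF1, the known target of PRAMEL7, was also looked up after the values were seen. Uhrf1 RNA averaged 246 ± 13.7 TPM in mutant and 266 ± 1.89 TPM in wild-type cells, a log2 fold change of -0.11 ± 0.07 (SE; limma, adjusted p = 0.289) whose sign turned to 0.01 under quantile scaling. Uhrf1 ranged from 213 to 257 TPM over the mutant libraries and from 263 to 272 TPM over the wild-type libraries. The groups did not overlap, and 19.4% of all tested genes lay lower in mutant cells in the same way. These are RNA levels, and UHRF1 protein was not measured here. Of 12 tested genes of UHRF1 and DNA methylation, 2 were called lower in limma and the other 10 were not called, a share of 16.7% called beside 17.5% of all tested genes, with a median of -0.23. Dppa3, whose protein keeps UHRF1 from chromatin, averaged 3.58 ± 0.348 TPM in mutant and 22.1 ± 0.318 TPM in wild-type cells, a log2 fold change of -2.35 ± 0.11 (SE; limma, adjusted p = 9.07e-04). Dnmt3a, a de novo methyltransferase gene, averaged 3.68 ± 1.001 TPM in mutant and 8.19 ± 1.04 TPM in wild-type cells, a log2 fold change of -0.99 ± 0.20 (SE; limma, adjusted p = 0.0219). The Dnmt3a call was lost without a filter and without mutant set 1 (limma, adjusted p = 0.0842 and 0.0677). Its mutant sets differed by up to 0.63 on the log2 scale (limma, adjusted p = 0.0141).

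Of 16 tested genes of the LIF and STAT3 pathway, 3 were called higher, 2 lower and 11 were not called, with a median log2 fold change of 0.13. Stat3 averaged 42.8 ± 3.35 TPM in mutant and 22.8 ± 2.24 TPM in wild-type cells, a log2 fold change of 0.89 ± 0.10 (SE; limma, adjusted p = 0.00618). Its feedback inhibitor Socs3 averaged 95.3 ± 3.60 TPM in mutant and 44.5 ± 0.735 TPM in wild-type cells, a log2 fold change of 1.08 ± 0.07 (SE; limma, adjusted p = 0.00195). The STAT3-responsive transcription factor gene Gbx2 rose by 1.28 ± 0.18 (SE; limma, adjusted p = 0.00969), a call lost without a filter (0.0501). Its wild-type sets themselves differed, at 15.4 TPM in set 1 and 9.6 TPM in set 2. Set 2 minus set 1 was -0.63 ± 0.06 on the log2 scale (SE; limma, adjusted p = 0.00289). Without wild-type set 2 the Gbx2 log2 fold change was 0.96, so its size depends on the wild-type set used. Jak1, a kinase of the receptor complex, fell by 0.39 ± 0.09 (SE; limma, adjusted p = 0.0339), a call lost under median-of-ratios and quantile scaling (0.0523 and 0.0507) and without mutant set 1 replicate 2 (0.0641).

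**Figure D5:**
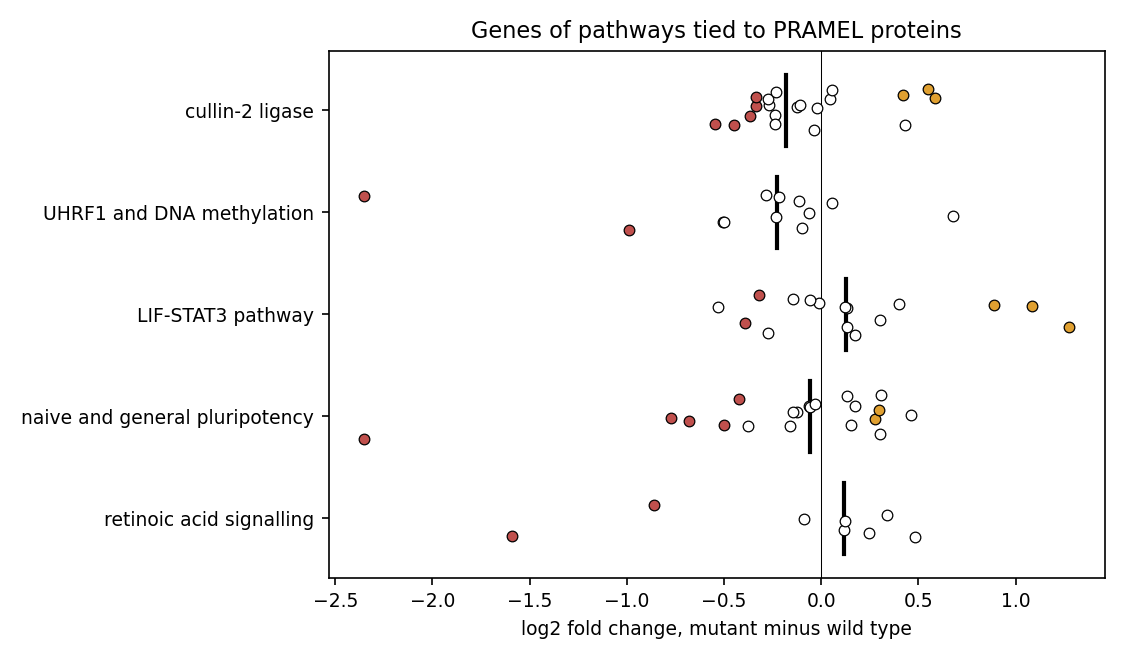
Log2 fold change, mutant minus wild type on the log2(TPM + 1) scale, of each tested gene of 5 lists (points, moved up or down at random within a row), with the list median as a bar; filled points were called at an adjusted p under 0.05 (red lower, orange higher), open points were not. Dppa3 at -2.35 is in 2 of the lists, and Gbx2, Socs3 and Stat3 are the filled points above 0.8 in the LIF-STAT3 row.

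Of 20 tested genes of naive and general pluripotency, 2 were called higher, 5 lower and 13 were not called, with a median of -0.06. Besides Dppa3, the pluripotency-associated gene Dppa2 fell by 0.77 ± 0.09, Nanog by 0.68 ± 0.08 and Zfp42, the naive marker known as Rex1, by 0.50 ± 0.13 on the log2 scale (SE; limma, adjusted p = 0.00618, 0.00674 and 0.0419). Nanog averaged 339 ± 23.2 TPM in mutant and 543 ± 43.6 TPM in wild-type cells. Its mutant sets differed by up to 0.18 on the log2 scale and its wild-type sets by 0.16 (limma, adjusted p = 0.00505 and 0.0202). Zfp42 averaged 249, 304 and 219 TPM in mutant sets 1, 2 and 3, and 352 and 369 TPM in wild-type sets 1 and 2. The Zfp42 mutant sets differed by up to 0.47 (limma, adjusted p = 4.23e-04), close to the size of its difference between mutant and wild type. The genes called higher, named after the values were seen, were Esrrb, a naive-state nuclear receptor gene, and Tdgf1, a Nodal co-receptor gene. Esrrb averaged 299 ± 5.99 TPM in mutant and 247 ± 17.1 TPM in wild-type cells, a log2 fold change of 0.28 ± 0.07 (SE; limma, adjusted p = 0.0365; 0.0911 without mutant set 1 replicate 1). Tdgf1 averaged 517 ± 16.0 TPM in mutant and 421 ± 21.8 TPM in wild-type cells, a log2 fold change of 0.30 ± 0.06 (SE; limma, adjusted p = 0.0269). Both calls were lost without a filter (limma, adjusted p = 0.0766 for Esrrb and 0.0669 for Tdgf1). Without a variance trend they were lost as well (limma, adjusted p = 0.0924 for Esrrb and 0.0766 for Tdgf1). Leaving out mutant set 1 or 3 also lost both. The Zfp42 call was lost under median-of-ratios and quantile scaling (both adjusted p = 0.0759) and without mutant set 1 replicate 1, mutant set 2 replicate 1 or wild-type set 1 replicate 2 (up to 0.0577). Pou5f1 averaged 1123 TPM in mutant and 1224 TPM in wild-type cells and was not called (limma, adjusted p = 0.265).

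Of 16 genes of retinoic acid signalling, 8 were tested, 2 were called lower in limma and the other 6 were not called, with a median of 0.12. Crabp1, a cytosolic retinoic acid binding protein gene, averaged 3.32 ± 0.854 TPM in mutant and 12.8 ± 7.53 TPM in wild-type cells, a log2 fold change of -1.59 ± 0.33 (SE; limma, adjusted p = 0.0235; 0.131 without wild-type set 2). Ezh2, a histone methyltransferase gene listed as a partner of human PRAME, fell by 0.86 ± 0.24 (SE; limma, adjusted p = 0.0489). It averaged 57.3, 59.9 and 102 TPM in mutant sets 1, 2 and 3, and 119 and 139 TPM in wild-type sets 1 and 2. Mutant set 3 thus lay nearest to the wild-type sets, and the mutant sets differed by up to 0.82 on the log2 scale (limma, adjusted p = 0.00262). The Ezh2 call was lost under median-of-ratios and quantile scaling (0.0501 and 0.0671) and in 9 of 10 fits that left out 1 library (up to 0.0640), all but the one without wild-type set 1 replicate 2. Of 13 genes of the two-cell-like state, which marks rare stem cells resembling the early embryo, 1 was tested: Zscan4f averaged 1.09 TPM in mutant and 1.88 TPM in wild-type cells, overlapping between groups (limma, adjusted p = 0.221).

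The genes whose levels ran most like those of the members over the 10 libraries were named by Pearson's r of log2(TPM + 1), as a description. For Pramel6 these were Elavl2 (r = 0.993), Pdia4 (0.993), Mia2 (0.993), AA465934 (0.992) and Mex3b (0.991). For Pramel7 they included Mcf2 (0.992), Fam3c (0.992), Gm43549 (0.989) and Chd1l (0.988). Pramel6 and Pramel7 ran together at r = 0.977, and at r = 0.462 once each genotype's mean was removed. All points share the genotype difference, and 1044 tested genes had r above 0.9 with Pramel6 and 947 with Pramel7. Elavl2, an RNA-binding protein gene, for example, averaged 7.86 TPM in mutant and 18.2 TPM in wild-type cells, and Mcf2 averaged 21.8 TPM in mutant and 28.7 TPM in wild-type cells.

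Across the series, 12473 to 12812 genes reached 1 TPM in a library, so no library stood out by this count. Library totals, at 999999 to 1000001 TPM, are fixed by the TPM scaling and cannot show whether a library stands out. Sequencing depth is unknown. Ankrd11 RNA averaged 59.8 TPM in mutant and 62.4 TPM in wild-type cells (limma, adjusted p = 0.686), and a point substitution cannot be checked from TPM. The 6 embryonic stem cell markers summed to 2159 to 2452 TPM in mutant and 2650 to 2823 TPM in wild-type libraries, with 1 called higher and 2 lower. The 11 feeder fibroblast markers summed to 5.60 to 6.68 TPM in mutant and 4.79 to 7.34 TPM in wild-type libraries, with neither of the 2 tested called in limma and S100a4, Dcn and Postn at 0 in all libraries. The 8 primitive endoderm markers summed to 32.9 to 44.0 TPM in mutant and 26.3 to 31.3 TPM in wild-type libraries, with 1 of 1 tested called higher. The 8 trophoblast markers summed to 31.7 to 43.6 TPM in mutant and 23.3 to 29.6 TPM in wild-type libraries, with 2 of 5 tested called higher. The part of these markers in the PRAMEL levels was not tested.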

How the data were processed

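PolyA RNA libraries were made with a bead-based mRNA capture and a VAHTS Universal kit, per the labels' protocols. The authors' deposited values are TPM per gene and library, to 2 decimals. The submitters' processing notes name Trim Galore, STAR, RSEM, DESeq2 and the build mm10, whereas their versions, settings, strand mode and annotation were not given in the sources used here. TPM keeps no depth, so counting error is unknown. All 10 columns were matched by name and 0 were left out.

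Genes were placed in GENCODE M21 (55141 identifiers matched). Values were taken as log2(TPM + 1) for the 12797 genes whose mean reached 1 TPM. The 2 libraries of a set were averaged, and 3 mutant sets were compared with 2 wild-type sets by two-sided eBayes with a trend (limma 3.58.1 under R 4.3.3). Sets of 1 genotype were compared over the 10 libraries with 1 mean per set. P-values were adjusted by Benjamini-Hochberg over every tested gene, with a threshold of 0.05, and the fits were tested on simulated data. Identities were computed with Biopython 1.88 over aligned bases, and figures were drawn with matplotlib 3.10.9. Upstream sequences are from RefSeq, GRCm38.p6.

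Members and lists were chosen with earlier results of these data known. Named genes were the members, up to 4 called genes per list, ranked by log2 fold change, or its 2 lowest p-values if nothing was called, the 4 other family genes of highest level, the nearest tested neighbours and the 5 genes most correlated with each tested member, of which 1 is not reported here. Elob, Eloc, Cul2, Rbx1, Uhrf1, Pou5f1, Esrrb and Tdgf1 were added after seeing values. Alternatives changed the pseudocount, filter, scaling, variance trend, set handling and libraries or sets included. Summing Pramef17 with Gm13128 and searching RefSeq symbols for further family genes were chosen after seeing the data.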

Additional observations from a re-analysis of the deposited data

Results flagged for a closer look

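In a screen of 83 groups (42 genes, mutant and wild-type libraries apart), 5 held a library far from the rest of its group by Dixon's test, where chance gives about 1 in 20. Pramel5, Pramel6 and Pramel7 gave none. Chd1l, a chromatin remodeller gene, was at 13.7 TPM in mutant set 2 replicate 1 and at 12.1 to 12.5 TPM in the other 5 mutant libraries. Crabp1 was at 5.43 TPM in mutant set 1 replicate 2 and at 2.32 to 3.30 TPM in the other 5. Uhrf1 was at 213 TPM in mutant set 1 replicate 2 and at 248 to 257 TPM in the other 5. Eloc was at 181 TPM in wild-type set 1 replicate 1 and at 200 to 202 TPM in the other 3 wild-type libraries. Fam3c, a secreted factor gene, was at 32.9 TPM in the same library and at 39.6 to 40.6 TPM in the other 3.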

How the results depend on the processing

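Pramel6 and Pramel7 stayed lower in mutant cells under the alternatives run for each (Pramel7 drops out at a mean of at least 5 TPM); with a pseudocount of 0.1 their log2 differences were -3.48 and -3.50, and leaving out 1 library gave -2.90 to -2.64 and -2.55 to -2.32. The number of genes called in mutant against wild type was 809 without a filter, 654 without mutant set 1, 920 without mutant set 3, 196 without wild-type set 1 and 42 without wild-type set 2 (a lone set is assumed to vary like the others), 5269 with 10 libraries and no set term, 3398 with the set as a random block, and 1632 to 2078 without 1 library. Among mutant sets, 1614 were called without a filter and 1118 to 2801 without 1 library. Between wild-type sets, 157 were called without a variance trend, and 44 to 614 without 1 library. Pramef12 was at -0.69 without a filter (adjusted p = 0.0558), -0.59 without wild-type set 1 and -0.80 without wild-type set 2. Pramef8 was at 0.65 without a filter (0.0501), and at 0.64, 0.79 and 0.50 without mutant set 1, wild-type set 1 and wild-type set 2. Pramef17 was at -1.39 without wild-type set 2. The largest mutant-set difference was 0.44 to 0.90 for Pramel6 and 0.23 to 0.69 for Pramel7 without 1 library. Libraries of the same replicate number showed no clear shared shift (r between sets -0.08 to 0.12), nor did sets of the same number (-0.16 and -0.09). These correlations cannot show how the libraries were prepared, so pairing is not excluded. With set number as a replicate block in sets 1 and 2, 561 genes were called and Pramef8 was at 0.64 (0.0550); with replicate number as a block, 233 were called between wild-type sets. Gm13123 ran from -0.38 to 0.0258 without 1 library, turning sign without wild-type set 1 replicate 2, and Uhrf1 was at 0.0093 under quantile scaling. Of 870 values for 35 other named genes, 737 kept their direction and side of the threshold and 131 lost the call. The cause of these changes was not tested.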
